A study of Mus musculus with 8 samples.

Results

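The plasminogen activator system was followed through 4 genes in mouse embryonic fibroblast (MEF) cells exposed to RHPS4, a small molecule that binds G-quadruplexes (G4s), stacked structures formed by guanine-rich strands. The genes were Plau, Plat, Plaur and Serpine2, 4 of the 24460 genes counted, and they were chosen by their role in the system and from their own normalized counts at 0, 2 and 10 µM RHPS4. Their values in all 3 comparisons between doses are therefore given as a description, with no p value. Their place against the thresholds used for other genes is not read as a result. The cells were wild type MEFs that were not yet confluent, and every library came from the same kind of culture with RHPS4 in the medium as the only labelled difference. The 0 µM and 2 µM doses had 3 libraries each and the 10 µM dose had 2, made from total RNA after removal of nuclear ribosomal RNA. The labels list more than a single exposure time without saying which applied to these libraries, and they do not say whether the libraries of a dose came from separate cultures or how many embryos the MEFs came from. The p values given for other genes measure only the spread between these libraries, which may be technical.

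Plasminogen activators are serine proteases that cut the zymogen plasminogen into plasmin, a protease that dissolves fibrin and helps to degrade extracellular matrix. The urokinase-type activator (uPA, encoded by Plau) acts largely at the cell surface, where its receptor uPAR (encoded by Plaur) holds it. The tissue-type activator (tPA, encoded by Plat) is best known for cutting plasminogen at fibrin. Serpins, inhibitors that trap a protease in a covalent complex, hold both activators in check, and fibroblasts are a known source of activators and inhibitors alike.

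All 4 genes are protein-coding, and by GENCODE positions on GRCm38 (mm10) none of them overlapped another gene on either strand. Plau lies at chr14:20836660-20843385 on the plus strand, Plat at chr8:22757727-22782844 on the plus strand, Plaur at chr7:24462484-24475968 on the plus strand and Serpine2 at chr1:79794197-79861180 on the minus strand. RefSeq promoter entries (GRCm38.p6) matched 2 of the 4 genes, Plaur and Serpine2. The promoter of Plaur is shown because its mRNA differed most between the doses among these genes and because RHPS4 is a G4 ligand. Its 250 bases before the start site, chr7:24462233-24462482 on the plus strand, are written from 5′ to 3′, with capitals for the match to the AP-1 motif TGANTCA and for the stretches that match a G4 pattern (4 runs of at least 3 G, or of C for the other strand, with loops of 1 to 7 bases).
Plaur: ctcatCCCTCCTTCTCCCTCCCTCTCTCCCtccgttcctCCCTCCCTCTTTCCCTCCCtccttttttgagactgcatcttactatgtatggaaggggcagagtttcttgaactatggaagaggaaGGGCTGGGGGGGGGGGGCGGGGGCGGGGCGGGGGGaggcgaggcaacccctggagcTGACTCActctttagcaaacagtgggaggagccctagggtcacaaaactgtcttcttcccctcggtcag
The AP-1 match, TGACTCA, lay 69 to 63 bases before the start site. The G4 pattern occurred 3 times, at 245 to 221 and 211 to 193 bases on the minus strand and at 125 to 91 bases on the plus strand. The Sp1 motif GGGCGG, with overlapping matches merged, covered 2 stretches inside the last of these, and the Ets core GGAA occurred 6 times over both strands.

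Of 32851 promoters of the same length in that table, 6.75% held TGANTCA, 16.7% held the G4 pattern, 32.7% held GGGCGG and 93.5% held GGAA on either strand. The corresponding 250 bases of Serpine2, chr1:79858666-79858915 on the minus strand, held no TGANTCA, 1 stretch of the G4 pattern at 64 to 30 bases before the start site, 5 stretches of GGGCGG and 2 matches to GGAA. They were richer in G and C, at 78.8% against 59.6% in Plaur and a median of 52.4% over all promoters. Neither window held TATAAA or an NF-kB motif, which 12.4% and 7.25% of promoters held. A match is a description of the letters and not a site that was measured here.

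The libraries held 10455965 to 26688121 counts, and the first 0 µM library was the smallest. Counts are given as CPM (counts scaled to a common library size) after TMM scaling, which adjusts the library sizes so that most genes stay level. The lowest level that 3 counts could show was 0.112 to 0.287 CPM by library, a limit that covers counting error only. The mtDNA features took 13.2 to 14.4% of the counts at 0 µM, 7.40 to 8.26% at 2 µM and 5.33 to 6.32% at 10 µM. Of 11 fibroblast markers, 10 exceeded 1 CPM, and their summed level was 9187 to 10003 CPM at 0 µM, 8597 to 9473 CPM at 2 µM and 8318 to 8789 CPM at 10 µM. Of the 11, 1 passed the thresholds given below in any comparison. This marker, Pdgfrb, was lower at 10 µM against 0 µM (log2 fold change −0.60). Pdgfrb averaged 235, 184 and 155 CPM in order of dose, and its part in the results was not tested. The 5 endothelial markers summed to 4.41 to 7.63 CPM, the 6 macrophage markers to 7.16 to 11.5 CPM and the 5 epithelial markers to 2.49 to 4.76 CPM over all 8 libraries. The 3 myoblast markers summed to at most 1.32 CPM, with Myod1 and Myf5 at 0 in at least 1 library. The endothelial sum was highest at 10 µM, at 6.78 to 7.63 CPM against 4.72 to 6.75 CPM at 0 µM, and its part in the results was not tested.

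Among the activators, uPA mRNA was scarce and its mean was highest at 2 µM. Plau stood at 7.89, 5.80 and 6.39 CPM in the first, the second and the third 0 µM libraries, at 8.46, 8.32 and 9.27 CPM at 2 µM and at 7.63 and 7.55 CPM at 10 µM. All 2 µM libraries lay above all 0 µM libraries, by as little as the gap between 7.89 and 8.32 CPM, and the 10 µM libraries lay inside the 0 µM range and below the 2 µM libraries. The means were 6.69 ± 1.08 CPM (SD, n = 3) at 0 µM, 8.68 ± 0.516 CPM (SD, n = 3) at 2 µM and 7.59 ± 0.0553 CPM (SD, n = 2) at 10 µM. The log2 fold change from edgeR was 0.41 (SE 0.131) at 2 µM against 0 µM, 0.22 (SE 0.146) at 10 µM against 0 µM and −0.20 (SE 0.145) at 10 µM against 2 µM. These values rest on 76 to 161 counts a library.

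The mRNA of the other activator, tPA, had a lower mean in the treated cells at either dose. Plat stood at 80.5, 68.2 and 67.6 CPM at 0 µM, at 52.4, 56.4 and 52.4 CPM at 2 µM and at 50.5 and 59.998 CPM at 10 µM. Every treated library lay below every untreated one, and the 2 µM libraries lay inside the range of the 10 µM libraries. In bulk RNA a smaller number of cells that make an mRNA and less of that mRNA per cell cannot be told apart. The means were 72.1 ± 7.30 CPM (SD, n = 3), 53.7 ± 2.32 CPM (SD, n = 3) and 55.2 ± 6.72 CPM (SD, n = 2) in order of dose. The log2 fold change was −0.42 (SE 0.0926) at 2 µM and −0.38 (SE 0.104) at 10 µM against 0 µM, and 0.04 (SE 0.104) between the treated doses. The first 0 µM library, the smallest, was the highest for Plat, and without it the change at 2 µM was −0.33.

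The receptor had the widest difference of the 4 genes, at the lower dose. Plaur stood at 22.7, 24.2 and 21.7 CPM at 0 µM, at 33.2, 36.4 and 34.0 CPM at 2 µM and at 25.6 and 24.3 CPM at 10 µM. All 2 µM libraries lay above all the others, and the 10 µM libraries lay above the 0 µM libraries by as little as the gap between 24.2 and 24.3 CPM. The means were 22.9 ± 1.24 CPM (SD, n = 3), 34.6 ± 1.68 CPM (SD, n = 3) and 24.9 ± 0.895 CPM (SD, n = 2) in order of dose. The log2 fold change was 0.60 (SE 0.0820) at 2 µM and 0.13 (SE 0.0924) at 10 µM against 0 µM, and −0.47 (SE 0.0922) at 10 µM against 2 µM. The change at 2 µM was a 1.51-fold one, at the edge of the 1.5-fold minimum, and it lay between 0.55 and 0.65 with each library left out in turn.

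The serpin among the 4 genes, protease nexin-1, inhibits thrombin, uPA, tPA and plasmin, and its mRNA had the lowest level of the 4 genes. Serpine2 stood at 2.39, 1.59 and 2.26 CPM at 0 µM, at 1.76, 1.96 and 1.72 CPM at 2 µM and at 1.53 and 2.09 CPM at 10 µM. The groups overlapped in every comparison. The means were 2.08 ± 0.431 CPM (SD, n = 3), 1.81 ± 0.125 CPM (SD, n = 3) and 1.81 ± 0.396 CPM (SD, n = 2), and the log2 fold change was −0.17 (SE 0.228) at 2 µM and −0.19 (SE 0.252) at 10 µM against 0 µM. With 20 to 57 counts a library the precision was low. The first 2 µM library, for example, had 20 counts, or 1.76 CPM before TMM scaling, with an exact (Clopper-Pearson) 95% binomial interval of 1.07 to 2.71 that covers counting error only.

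**Figure D1:**
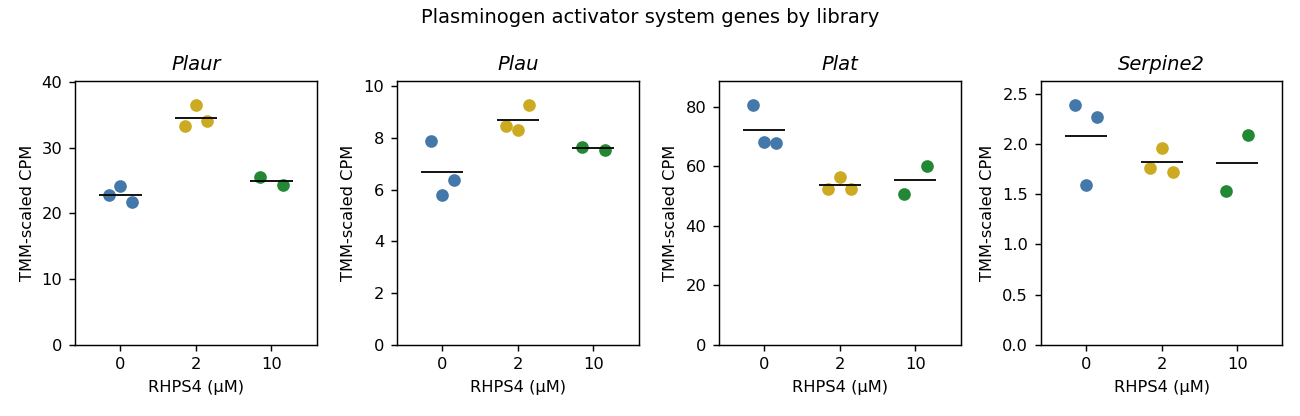
Level of each of the 4 genes in CPM after TMM scaling (vertical axes, from 0) in the 8 libraries at 0, 2 and 10 µM RHPS4; points are libraries and lines are means. Plaur is higher in the 3 libraries at 2 µM than in all others, Plat is lower in the 5 treated libraries than in the 3 untreated ones, and Serpine2 overlaps at all doses.

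A gene was called at an adjusted p under 0.01 (edgeR's quasi-likelihood test, Benjamini-Hochberg over the 14296 genes tested) and a fold change over 1.5. All 4 genes passed the filter on low counts. At 2 µM against 0 µM, 1 of the 4 (Plaur, higher) passed these thresholds, where 0.497% of all tested genes did, and for 3 of the 4 the libraries of the doses did not overlap, as for 25.7% of tested genes. At 10 µM against 0 µM none of the 4 passed with edgeR or DESeq2, where edgeR called 3.09% of all tested genes. For 2 of the 4 the libraries did not overlap, as for 42.9% of tested genes. At 10 µM against 2 µM again none passed with either tool, where edgeR called 5.51% of all tested genes. The log2 fold change of Plaur, lower at 10 µM (−0.47), was under the fold minimum with edgeR. For 2 of the 4 the libraries did not overlap, as for 51.8% of tested genes. The 4 genes were selected on these values, so nothing is read from the counts. The median log2 fold change of the 4 genes was 0.12, −0.03 and −0.11 in these comparisons, beside −0.01, 0.02 and 0.03 over all tested genes. The first and the second comparison share the 0 µM libraries.

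The place of Plaur past the thresholds at 2 µM, described here and not read as a result, depended on the libraries. It was lost in 6 of 16 alternatives, with the replicate number as a block (log2 fold change 0.60) and on leaving out the second (0.65) or the third (0.55) untreated library or the first (0.62), second (0.56) or the third (0.61) 2 µM library. The scaling mattered for the level of all 4 genes at 10 µM. With total counts in place of TMM the median log2 fold change over all tested genes moved by 0.214 at 10 µM against 0 µM, Plat went from −0.38 to −0.16 and Plaur from 0.13 to 0.34. Relative to the median gene, both kept their direction.

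**Figure D2:**
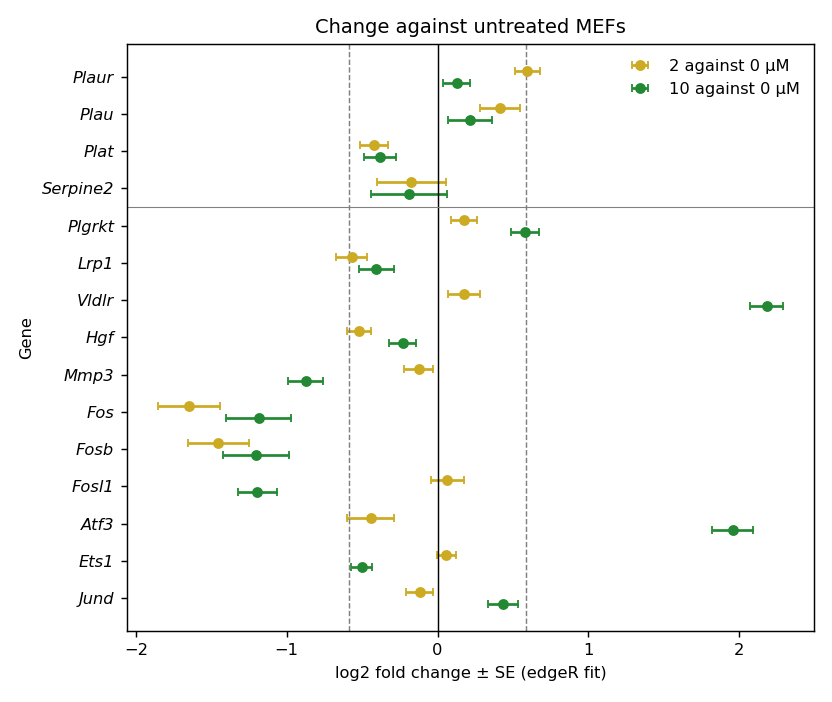
Log2 fold change and standard error from edgeR (horizontal axis) for the 4 genes and some of the named genes of the wider system at 2 µM (n = 3) and 10 µM (n = 2) against 0 µM (n = 3) RHPS4. Points are estimates, bars are standard errors and dashed lines mark a 1.5-fold change. The largest positive values are those of Vldlr (2.18) and Atf3 (1.96) at 10 µM against 0 µM, and the most negative is that of Fos (−1.65) at 2 µM against 0 µM.

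Levels of different genes were compared per length, as CPM per kb of all annotated exons of a gene. At 0 µM the order of the 4 levels was Plat, at 11.6 ± 1.17 CPM per kb (SD, n = 3), then Plaur at 8.74 ± 0.474, Plau at 2.83 ± 0.455 and Serpine2 at 0.251 ± 0.0520. No neighbours in that order overlapped, since Plat ranged from 10.8 to 12.9 and Plaur from 8.30 to 9.24 CPM per kb. At 2 µM Plaur came first, with 12.7 to 13.9 CPM per kb against 8.39 to 9.04 for Plat, and at 10 µM both overlapped, with 9.29 to 9.78 for Plaur and 8.09 to 9.61 for Plat. Plau and Serpine2 came after these at every dose, in that order. Among 13759 tested genes with a length, each gene was ranked by its mean level per length at 0 µM, without TMM scaling. Plat stood at percentile 71.2, Plaur at 64.2, Plau at 39.1 and Serpine2 at 14.0. With the longest transcript as the length, the order at 0 µM was again Plat (17.8 CPM per kb), Plaur (11.4), Plau (2.86) and Serpine2 (0.613).

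Ratios of these mRNAs taken inside each library are free of the scaling. For Plau over Serpine2 the log2 ratio of counts, with 0.5 added to each, was 1.49 to 1.85 at 0 µM, 2.06 to 2.41 at 2 µM and 1.84 to 2.30 at 10 µM, with means of 1.68 ± 0.183 (SD, n = 3), 2.24 ± 0.171 (SD, n = 3) and 2.07 ± 0.326 (SD, n = 2). Both genes entered the ratio as selected, and the 2 µM libraries did not overlap with the 0 µM libraries. The ratio of Plat to Serpine2 was 5.11 ± 0.264, 4.86 ± 0.0410 and 4.92 ± 0.140 in order of dose, and that of Plaur to Plau was 1.78 ± 0.268, 1.99 ± 0.129 and 1.71 ± 0.0418. Both ratios overlapped between 0 µM and either treated dose, and Plaur to Plau ran from 1.87 to 2.13 at 2 µM and, without overlap, from 1.68 to 1.74 at 10 µM.

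Over the 8 libraries, Pearson's r of log2 CPM was 0.72 between Plaur and Plau, −0.69 between Plaur and Plat, 0.67 between Plat and Serpine2 and −0.53 between Plau and Plat. The libraries share doses and scaling, so these are descriptions. The tested genes whose pattern was most like that of Plaur were Ajuba (r = 0.986), Dhx29 (0.981) and Amotl2 (0.980), and Ajuba averaged 66.1, 100.4 and 70.0 CPM at 0, 2 and 10 µM. For Plau they were Rbm48 (0.978), Zfp280c (0.969) and Rae1 (0.967). For Plat they were Sesn1 (0.987), Tmem173 (0.981) and Ndrg2 (0.963), of which Ndrg2 averaged 6.15, 3.57 and 3.95 CPM. The highest values for Serpine2 were lower, at 0.918 for Prdx4, 0.907 for Gnb2 and 0.892 for Snord22.

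The wider system was read from 70 further genes in lists written from general knowledge, with earlier results of these data known. Calls in these lists, here and below, are therefore a description beside the shares of all tested genes. Of the 70 genes, 54 were tested. The 16 others had at most 19 counts in any library. They included Plg, encoding the zymogen itself, at a mean of 0.558 CPM, and the fibrinogen chains Fga, Fgb and Fgg. Plasminogen protein was not measured here, so these counts do not show how much of the activators' main substrate was present. Among the 54, 0 were called higher and 2 lower at 2 µM against 0 µM (0.119% and 0.378% of all tested genes), 2 higher and 4 lower at 10 µM against 0 µM (1.95% and 1.14%), and 2 higher and 2 lower at 10 µM against 2 µM (3.92% and 1.59%). At 2 µM, 2 of the 54 had a higher and 14 a lower mean at an unadjusted p under 0.05 with edgeR. DESeq2 called 0 higher and 2 lower. Here and below, the share of all tested genes at that unadjusted p is not given, so nothing is read from such counts. The median log2 fold change of the 54 genes was −0.13, −0.20 and −0.02, beside −0.01, 0.02 and 0.03 over all tested genes.

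Of the other inhibitors, 5 of 8 were tested and none was called in any comparison by edgeR or DESeq2, with 2, 1 and 3 of them at an unadjusted p under 0.05. Serpinb2, encoding an inhibitor of plasminogen activators, averaged 4.08, 5.23 and 2.89 CPM, with 1.89 and 3.88 CPM in the 10 µM libraries, and at 10 µM against 2 µM it passed only without the second 10 µM library (log2 fold change −1.49, adjusted p = 0.00377). Its annotated span from gene start to end overlaps that of Serpinb10 on the same strand.

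The receptors that bind plasminogen at the cell surface held 5 tested genes, of which 0 were called by edgeR, 0, 3 and 2 had an unadjusted p under 0.05, and 0, 0 and 1 were called by DESeq2. Anxa2 and S100a10, the parts of the annexin A2 complex, averaged 1225 and 490 CPM over all libraries. Plgrkt, a membrane receptor for plasminogen named after its values were seen, averaged 21.1, 23.9 and 31.7 CPM and had a log2 fold change of 0.58 (SE 0.0936, adjusted p = 0.00249 from edgeR) at 10 µM against 0 µM, just under the fold minimum, and it was called without the first 10 µM library (0.63), with total counts (0.80) and with at least 10 counts in every library (0.59). Hmgb1, a nuclear protein that also binds plasminogen, averaged 351, 393 and 266 CPM, with −0.56 (adjusted p = 0.00805) at 10 µM against 2 µM, just under the fold minimum. It passed with the replicate block (−0.60, adjusted p = 0.00233), with DESeq2 (−0.60), with no filter on low counts (−0.60) and without the first (−0.59) or second (−0.59) 0 µM library. Hmgb1 overlaps several annotated genes, and Eno1 has a near-identical copy, so the levels of both are uncertain.

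Among the partners and clearance receptors of uPAR, 12 of 13 were tested and the call in each comparison with 10 µM was Vldlr, a receptor of the LDL family that takes up uPA bound to its inhibitor. It stood at 20.03, 25.4 and 27.3 CPM at 0 µM, at 27.1, 27.7 and 28.4 CPM at 2 µM and at 117 and 106 CPM at 10 µM. Both 10 µM libraries lay far above the other 6. Vldlr rose by a log2 fold change of 2.18 (SE 0.110, adjusted p = 7.82e-07 from edgeR) against 0 µM and 2.00 (adjusted p = 1.22e-06) against 2 µM, and was called in all 16 alternatives. Lrp1, the main receptor of that family for clearing such complexes, stood at 1297, 1478 and 1582 CPM at 0 µM, at 860 to 1101 CPM at 2 µM and at 1075 and 1118 CPM at 10 µM. Every treated library lay below every untreated one, but the change of −0.57 (SE 0.103) at 2 µM had an adjusted p of 0.0159 and was called only without the first 0 µM library (−0.64, adjusted p = 0.00397). Lrp1 overlaps a gene on the other strand, and whether the counting used the strand was not given in the sources used here. Itgb1 and Cav1, an integrin chain and the caveolae protein that associate with uPAR, averaged 862 and 621 CPM.

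Of the proteases that can activate pro-uPA, 3 of 5 were tested and none was called by edgeR or DESeq2, with 0, 1 and 1 at an unadjusted p under 0.05. The cathepsins Ctsl and Ctsb averaged 754 and 471 CPM, whereas St14, encoding matriptase, averaged 0.914 CPM. Among substrates and downstream proteases, 9 of 10 were tested. Mmp3, encoding stromelysin, whose proenzyme plasmin cuts, stood at 17.7, 16.3 and 16.1 CPM at 0 µM, at 14.1, 14.7 and 16.6 CPM at 2 µM and at 8.85 and 9.28 CPM at 10 µM. It fell by 0.87 on the log2 scale (SE 0.116, adjusted p = 0.000708 from edgeR) at 10 µM against 0 µM and fell by 0.75 (adjusted p = 0.00134) against 2 µM, a call that was lost without the first 10 µM library (adjusted p = 0.0111). Hgf, a growth factor whose precursor uPA can cut, was named after its values were seen. It averaged 95.5, 66.5 and 81.2 CPM, with −0.52 (SE 0.0797, adjusted p = 0.00679 from edgeR) at 2 µM against 0 µM, under the fold minimum. Its annotated span overlaps other genes on the same strand. Fn1, Mmp2 and Mmp14, encoding fibronectin and matrix proteases, averaged 3319, 276 and 187 CPM.

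The thrombin axis, on which protease nexin-1 also acts, had 4 of 9 genes tested and none called by edgeR or DESeq2, with 1, 1 and 2 at an unadjusted p under 0.05. F3, encoding tissue factor, averaged 56.1, 43.5 and 51.2 CPM, with −0.37 (adjusted p = 0.0321) at 2 µM against 0 µM. F2r, the thrombin receptor, averaged 70.3, 74.9 and 55.4 CPM and was called at 10 µM against 2 µM only without the first 10 µM library (−0.66). Tfpi, an inhibitor of tissue factor, averaged 97.9 CPM over all libraries.

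The regulators, 16 tested genes for AP-1, Ets and other transcription factors and for mRNA decay, held 0 calls higher and 2 lower at 2 µM against 0 µM (0.119% and 0.378% of all tested genes), 1 higher and 3 lower at 10 µM against 0 µM (1.95% and 1.14%), and 1 higher and 1 lower at 10 µM against 2 µM (3.92% and 1.59%). At 2 µM edgeR and DESeq2 each called 0 genes of this list higher and 2 lower. In this list, 0 genes had a higher and 5 a lower mean at an unadjusted p under 0.05. Fos stood at 8.10, 9.07 and 8.30 CPM at 0 µM, at 2.12, 2.12 and 3.63 CPM at 2 µM and at 4.40 and 3.02 CPM at 10 µM. Fosb stood at 7.16, 10.4 and 9.01 CPM, at 2.38, 3.42 and 3.86 CPM and at 4.58 and 3.17 CPM. All treated libraries lay below all untreated ones for both genes. The more abundant AP-1 subunits Jun, Junb and Jund, named after their values were seen, averaged 121, 52.8 and 69.0 CPM over all libraries, and none was called. Jund averaged 65.4, 60.1 and 88.1 CPM in order of dose. At 10 µM against 2 µM it had 0.55 (adjusted p = 0.00284 from edgeR), under the fold minimum, and it was called there only with total counts (0.69).

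Fos fell by 1.65 on the log2 scale (SE 0.204, adjusted p = 0.00218 from edgeR) at 2 µM and fell by 1.18 (SE 0.216, adjusted p = 0.00489) at 10 µM against 0 µM. Fosb fell by 1.45 (SE 0.202, adjusted p = 0.00363) at 2 µM and fell by 1.21 (SE 0.219, adjusted p = 0.00482) at 10 µM. These calls depended on the libraries. For Fos at 2 µM the adjusted p was 0.0166, 0.0121, 0.0119 and 0.0212 on leaving out the second or the third 0 µM or the first or second 2 µM library, with changes from −1.68 to −1.52. For Fosb at 2 µM it was 0.0264, 0.0201, 0.0159, 0.0316 and 0.0121 on leaving out the second or the third 0 µM or the first, second or the third 2 µM library, with changes from −1.62 to −1.30, and 0.0118 with the replicate block. At 10 µM the call of Fos was lost without the second (−1.15) or the third (−1.21) 0 µM or the first (−1.52) or second (−0.98) 10 µM library. That of Fosb at 10 µM was lost without the second (−1.10) or the third (−1.20) 0 µM, the second 2 µM (−1.21) or the first (−1.54) or second (−1.01) 10 µM library, and in a fit of only the compared groups (−1.21, adjusted p = 0.0118). With the replicate block at 10 µM both were lost, at adjusted p = 0.0223 for Fos and 0.0232 for Fosb. Every direction stayed the same in these fits.

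Fosl1, encoding the AP-1 subunit Fra-1, stood at 68.0, 73.2 and 74.5 CPM at 0 µM, at 78.8, 72.1 and 75.3 CPM at 2 µM and at 36.9 and 25.7 CPM at 10 µM. Both 10 µM libraries lay below the other 6, and Fosl1 fell by 1.20 on the log2 scale (SE 0.129, adjusted p = 0.00017 from edgeR) against 0 µM and fell by 1.26 (adjusted p = 8.86e-05) against 2 µM. Fosl1 overlaps Ccdc85b on the other strand, and the reads of both cannot be told apart if the counting ignored the strand. Atf3, encoding a stress-induced factor that pairs with AP-1 subunits, stood at 4.26, 4.01 and 3.57 CPM at 0 µM, at 2.82, 2.45 and 3.21 CPM at 2 µM and at 14.8 and 15.5 CPM at 10 µM. Atf3 rose by 1.96 (SE 0.134, adjusted p = 7.92e-06) against 0 µM and 2.40 (adjusted p = 2.07e-06) against 2 µM, and like Fosl1 it was called in all 16 alternatives. Of the other regulators, Ets1, named after its values were seen, averaged 94.1, 98.0 and 66.3 CPM with −0.50 (adjusted p = 0.00107) at 10 µM against 0 µM, under the fold minimum. Against 2 µM it had −0.56 (adjusted p = 0.000395) and was called with DESeq2 (−0.60), with no filter on low counts (−0.61) and without the first (−0.59) or second (−0.59) 0 µM, the third 2 µM (−0.59) or the first 10 µM (−0.62) library. Fosl2, Sp1 and Nfkb1 averaged 240, 206 and 186 CPM over all libraries.

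**Figure D3:**
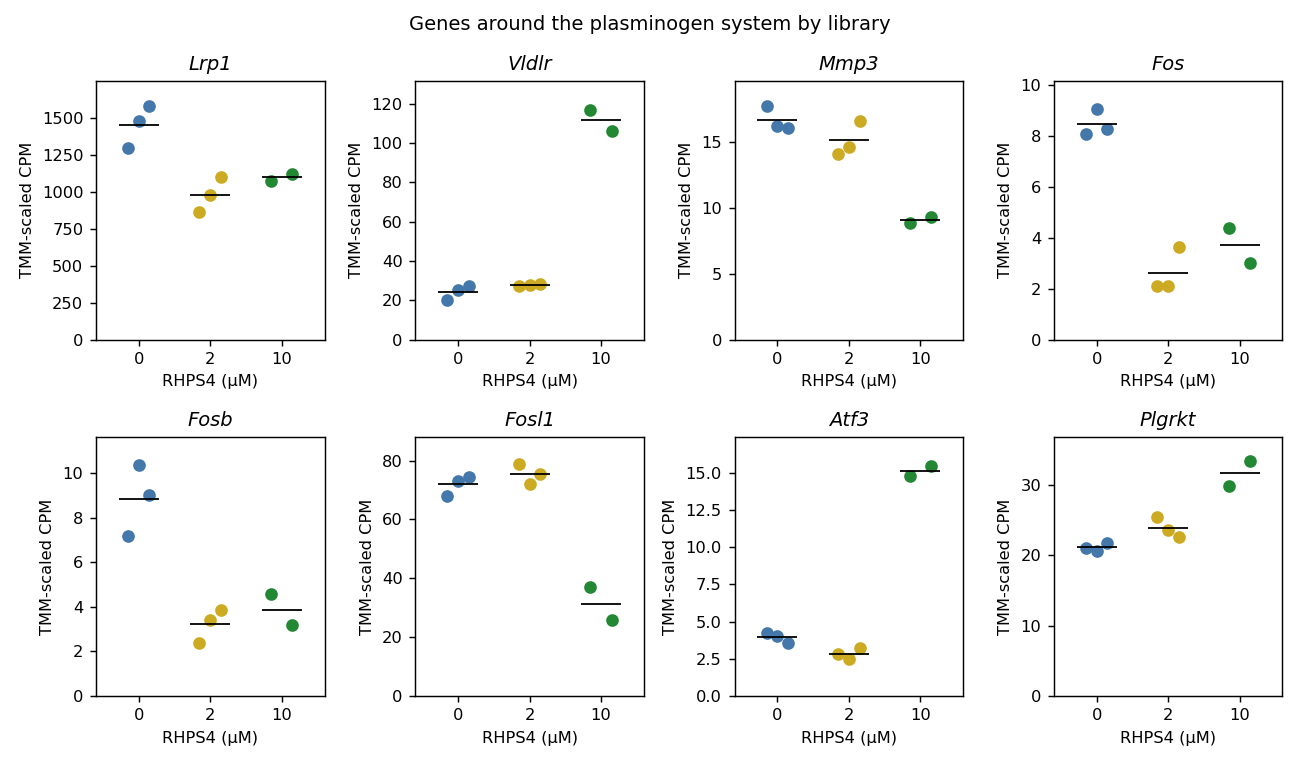
Level in CPM after TMM scaling (vertical axes, from 0) of named genes of the wider system in the 8 libraries at 0, 2 and 10 µM RHPS4; points are libraries and lines are means. Fos and Fosb are lower in all 5 treated libraries, Vldlr and Atf3 are higher and Fosl1 and Mmp3 lower in the 2 libraries at 10 µM, and Lrp1 is lower in all 5 treated libraries.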

How the data were processed

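RNA-Seq libraries of MEF cells at 0, 2 and 10 µM RHPS4 were compared. The authors deposited counts of read fragments per gene, as whole numbers and without normalization. Per the submitters' processing notes, reads were handled with FastQC, Trim Galore, cutadapt, STAR 2.5.2a and featureCounts on mm10. The gene annotation and the strand setting of the counting were not given in the sources used here. Uniquely mapped fragments were counted, so genes with near-identical copies can lose counts.

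The counts were fitted with edgeR 4.0.16 under R 4.3.3, using filterByExpr, TMM scaling and the quasi-likelihood test (glmQLFit, glmQLFTest), over all 8 libraries with the dose as factor, so that the 2 libraries at 10 µM shared the estimate of the spread, and Benjamini-Hochberg adjustment over 14296 genes. Calls needed an adjusted p under 0.01 together with more than a 1.5-fold change. SE values were obtained as |log2 fold change| over the root of F. Totals ran from 10455965 to 26688121 counts. Libraries of the same dose differed by a chi-square of 3.23 to 20.2 per degree of freedom, more than sampling noise, so none was taken for a second copy of another, which does not show that they were separate cultures. Intervals and floors (3 counts) cover counting error only, since PCR copies are not independent molecules. The fits were tested on simulated data, with changes at 10 µM only, in genes with high mean counts. Those changes were larger than any seen for the 4 genes, so the simulation does not show how well such small changes are found.

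The 4 genes and the gene lists were chosen with earlier results of these data known. Named were the 4 genes, listed genes called in any comparison, in each list up to 3 tested genes with the highest mean CPM, and for each of the 4 genes the 3 genes with the highest correlation of log2 CPM (prior count 2). Some of these are not reported here. Plgrkt, Hgf, Jund, Ets1, Jun and Junb were added after their values were seen. Positions and lengths came from GENCODE M21 (GRCm38), which held all 74 listed genes, and promoters from RefSeq (GRCm38.p6). Overlaps with other annotated genes are named above for some listed genes only. Jund, Ets1, Atf3, Ctsb, Ctsl, Jun and Junb, among others, also overlap another annotated gene. Alternatives were RLE scaling, TMM over nuclear genes, total counts, DESeq2 1.42.0, dropping the filter, requiring 10 counts in all libraries, dropping the fold minimum, fitting just the compared groups, a block for replicate number, leaving out each library, a pseudocount of 5 for ratios, and the longest transcript as length. The other experiments of the study were not used here.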

Additional observations from a re-analysis of the deposited data

How the results depend on the processing

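The log2 fold changes of Plaur at 2 µM, of Plau and of Plat against 0 µM kept their direction under every alternative run. Without a minimum fold change, 107, 747 and 1539 genes passed at 2 µM against 0 µM, 10 µM against 0 µM and 10 µM against 2 µM, in place of 71, 442 and 788, and in the wider system 4 and 7 genes in the first and last comparison in place of 2 and 4. With total counts, 914 genes passed at 10 µM against 0 µM, of which 92.6% were higher in place of 63.1%, and the share of higher calls went from 23.9% to 39.4% at 2 µM and from 71.2% to 91.7% at 10 µM against 2 µM. On that scale Plaur was 0.67 at 2 µM, 0.34 at 10 µM and −0.33 between the treated doses, Plau 0.43 at 10 µM, and Plat −0.16 at 10 µM and 0.17 between the treated doses. Nfkb1 turned to 0.0442 at 2 µM and F3 to 0.0844 at 10 µM. DESeq2 called 109 genes at 2 µM. With each library left out, 6 to 144, 235 to 633 and 444 to 884 genes passed in the 3 comparisons, the extremes being without the second 2 µM library (6), without the second 10 µM library (235 and 444) and without the first 0 µM library (144, 633 and 884), and 0 to 3 wider genes passed at 2 µM. Plaur lay between −0.55 and −0.43 at 10 µM against 2 µM, Plat between −0.54 and −0.29 at 10 µM against 0 µM and between −0.13 and 0.12 against 2 µM, and Serpine2 between −0.45 and 0.000697 and between −0.28 and 0.17. The difference in log2 ratio of Plau to Serpine2 at 10 µM against 0 µM lay between 0.16 and 0.62. Nfkb1 ranged from −0.0694 to 0.0252 at 2 µM (highest without the third 2 µM library), and without the first 10 µM library Fosl2 was −0.00400 against 0 µM and Fosb −0.0950 against 2 µM, where Fosb reached 0.44 without the second. With the longest transcript as length, Plaur was 11.4, Plat 17.8 and Serpine2 0.613 CPM per kb at 0 µM. Where no value here shows it, the cause was not tested. Same-numbered 0 and 2 µM libraries correlated in their deviations at r = 0.0845 to 0.199. Of these libraries, 6 of 6 correlated best with their own number, a weak hint of pairing from the data that the main fit did not use. The margin was small for the second 0 µM library, at 0.0845 with the second 2 µM library and 0.0584 with the third. The 10 µM libraries did not share it. Their same-number r was −0.145 and −0.105 with 0 µM and −0.0212 and −0.0610 with 2 µM. With the replicate number as a block, 54, 322 and 735 genes and 1, 4 and 5 wider genes passed. Plaur at 2 µM was 0.60 in that fit and no longer passed. The 20 to 57 counts of Serpine2 and the 2 libraries at 10 µM limit the precision.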
